A study of Mus musculus and Homo sapiens with 8 samples.

Results

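The 10 genes described here encode 5 ligands of the epidermal growth factor (EGF) family (Areg, Ereg, Btc, Hbegf and Tgfa), 3 ErbB receptors (Egfr, Erbb2 and Erbb3) and 2 inhibitors of those receptors (Lrig1 and Errfi1). They were chosen by name, with earlier results of these data known. All 10 were found among the 13359 distinct genes of the deposited expression table. RNA-seq was made from crypts of the small intestine of 2-month-old, untreated C57BL/6 mice. All mice carried the Apc Min mutation (APCmin+), which truncates a brake on Wnt signalling and gives rise to intestinal adenomas. The controls had APCmin+ alone (2 libraries), and the other group was labelled APCmin+; Zmynd8IEC-/-, which reads as a deletion of the chromatin reader gene Zmynd8 in intestinal epithelial cells (2 libraries). Each library was a pool of RNA from 3 mice. Pools of the second group are called labelled knockouts below. The labels name neither the Cre driver nor the exons deleted, and do not say whether control mice carried a floxed allele. Whether the pools of a group came from separate litters or days is not stated, and p-values therefore measure only the spread between these pools.

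EGF family ligands are made as membrane proteins and released by metalloproteases. They bind EGFR or related receptors, which pair up and signal through RAS-ERK and PI3K-AKT. In the intestine this pathway drives proliferation at the crypt base and repair after injury. ERBB2 binds no known ligand, and ERBB3 has a nearly inactive kinase, so both act in pairs with another receptor. LRIG1 lowers ErbB receptor levels and marks crypt stem cells, while ERRFI1 (also called MIG6) binds the active kinase and is induced by the signal it restrains.

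Promoter sequences from RefSeq (GRCm38.p6), running from 250 bases before to 50 bases after a start site, were at hand for Areg, Btc, Tgfa, Egfr, Erbb2, Lrig1 and Errfi1, which made 8 windows because Errfi1 had 2. The Areg window and the downstream Errfi1 window are shown because these genes lay on opposite sides of the comparison below, yet both windows hold a cAMP response element (CRE, TGACGTCA) and a TATA box (TATAAA), in capitals. Both lie on the plus strand and are written 5′ to 3′.
Areg, chr5:91139349-91139648: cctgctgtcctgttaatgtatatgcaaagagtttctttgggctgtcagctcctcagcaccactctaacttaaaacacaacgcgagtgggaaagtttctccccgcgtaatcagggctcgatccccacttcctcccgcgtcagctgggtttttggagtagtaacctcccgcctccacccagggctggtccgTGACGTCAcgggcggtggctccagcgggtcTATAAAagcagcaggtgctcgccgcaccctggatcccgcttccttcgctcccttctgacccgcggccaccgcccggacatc
Errfi1, chr4:150854820-150855119: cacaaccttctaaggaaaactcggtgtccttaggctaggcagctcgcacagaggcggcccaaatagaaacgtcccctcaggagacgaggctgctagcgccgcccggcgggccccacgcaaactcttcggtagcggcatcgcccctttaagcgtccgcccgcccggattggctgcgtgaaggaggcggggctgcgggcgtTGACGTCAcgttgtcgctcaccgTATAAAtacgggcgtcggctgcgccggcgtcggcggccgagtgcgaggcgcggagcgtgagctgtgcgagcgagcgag

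The CRE stood 61 to 54 bases upstream of the start site in Areg. In Errfi1 it stood 51 to 44 bases upstream of the start site of the downstream window. The TATA box stood 31 to 26 and 28 to 23 bases upstream. The downstream Errfi1 window lies inside the gene as placed below, and the upstream window holds neither element. Which start site is used in these crypts was not tested. On both strands, the CRE letters occurred in 1.79% of the 32851 promoter windows in the RefSeq table and the TATA letters in 13.6%. Both together occurred in 56 windows (0.17%), and among the 8 windows here in these 2 only. The motifs were chosen after the values were seen, so these shares are a description. GGGCGG, the GC box, was in 5 of the 8 windows (Areg, Tgfa, Egfr, Lrig1 and Errfi1) and in 35.7% of all windows. GGAATG, the core letters bound by the YAP partner TEAD, was in 2 of the 8 (Erbb2 and the upstream Errfi1 window) and in 14.7% of all. TGACG, which is contained in the CRE, was in 4 of the 8 and in 20.8% of all. TGANTCA (AP-1), CCGGAAGT (ETS) and CACGTG (E-box) were in 0 of the 8 windows, and in 7.81%, 3.89% and 7.15% of all. These are matches of letters and do not show binding.

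Values are FPKM (read counts scaled to gene length and library size), as the authors deposited them. Fold changes are differences of log2(FPKM + 1), labelled knockout minus control, which understate the change of low genes, with limma p-values adjusted (Benjamini-Hochberg) over the 12948 genes tested. The library totals ran from 44718091 to 48778712 reads. Zmynd8 itself stood at 6.94 and 4.73 FPKM in the controls, against 7.30 and 7.65 FPKM in the labelled knockouts, so gene-level RNA could not serve as a test of the genotype, and all directions below take the labels as given. Control replicate 1 stood apart in many genes. Clu stood at 330 FPKM there, against 4.81 to 20.8 FPKM in the other libraries, and Muc6 at 29.2 against 0.364 to 1.21 FPKM. The stem cell gene Lgr5 stood at 14.8 against 2.74 to 3.48 FPKM. Each of the 10 genes is therefore also given without control replicate 1. Over all genes the median log2 fold change was -0.15, and median-ratio scaling of the libraries moved it by 0.15. By limma 94 genes passed an adjusted p under 0.05 (77 higher and 17 lower), and 64 after median-ratio scaling (60 higher and 4 lower). All 7 epithelial markers of a fixed list were present, with Epcam at 976 to 1315 FPKM.

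None of the 10 genes passed the threshold. Amphiregulin, epiregulin, TGF alpha and Lrig1 RNA had lower means by 31.2% to 45.5% in the labelled knockouts, the receptors by 9.49% to 29.2%, Btc by 34.8% and Hbegf by 7.67%, and Errfi1 alone had a higher mean, by 1.42-fold. In limma 0 of 10 passed at an adjusted p under 0.05 (0.726% of all genes did, 0.595% higher and 0.131% lower), 3 were at an unadjusted p under 0.05, all lower (Areg, Tgfa and Lrig1; 19.1% of all genes were lower at that level), and voom on reads recovered from the FPKM values called 0. In the authors' deposited table all 10 had a q-value of 1. Log2 fold changes were negative for 9 of the 10, as for 71.7% of all genes, and for 7 of the 10 after median-ratio scaling, as for 51.3%. In 7 of the 10 both labelled knockouts were below both controls, where 48.5% of all genes tested were. In 1, Errfi1, both were above, where 14.9% of all genes were. After median-ratio scaling these counts were 4 lower (Areg, Tgfa, Erbb2 and Lrig1) and 1 higher, against 28.3% and 27.9% of all genes. The median log2 fold change of the 10 genes was -0.37, against -0.15 for all genes, and -0.24 against -0.01 after median-ratio scaling.

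**Figure D1:**
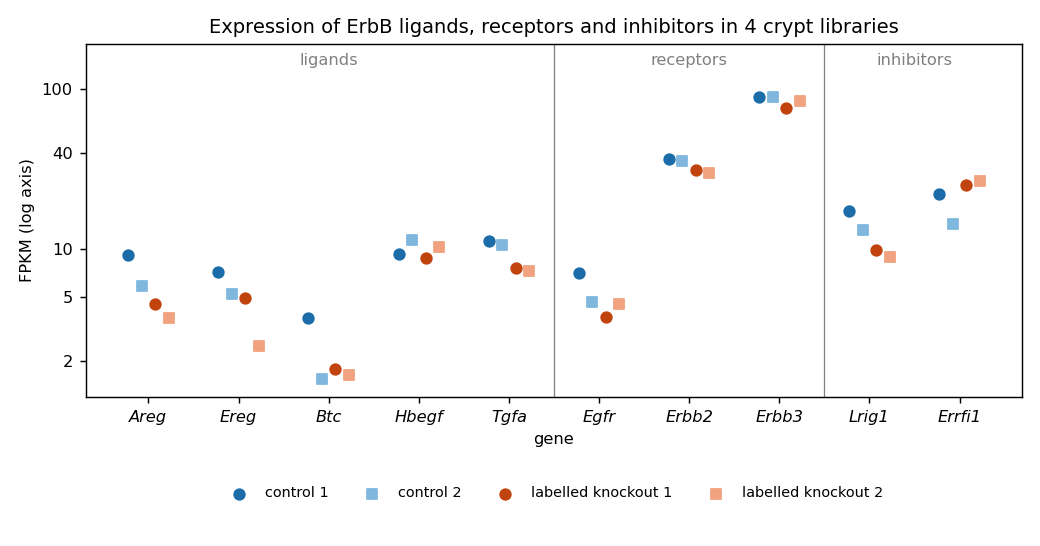
Expression in FPKM (log axis) of each gene in the 2 control libraries (blue) and the 2 labelled knockouts (orange), 1 point per library. Areg, Tgfa and Lrig1 sat lower in both labelled knockouts than in both controls, Errfi1 sat higher, and the 2 groups overlapped for Btc and Hbegf.

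Areg encodes amphiregulin, a low-affinity EGFR ligand known as a transcriptional target of YAP, the Hippo pathway effector in the title of the series. The gene lies on chromosome 5 (91139599 to 91148432, plus strand, mm10). Its level was 9.26 and 5.87 FPKM in control replicates 1 and 2 and 4.54 and 3.70 FPKM in labelled knockouts 1 and 2. The groups did not overlap, and the 95% Poisson intervals of the nearest libraries were separate (5.27 to 6.52 FPKM in control replicate 2 and 4.01 to 5.13 FPKM in labelled knockout 1), which rest on reads recovered from the FPKM values and cover counting error only. Its fold change on the log2 scale was -0.72 (SE 0.23, 95% interval -1.31 to -0.13, limma adjusted p = 0.149). Without control replicate 1 it was -0.43, and without control replicate 2 it was -1.01, so its size depended on which control pool was left in.

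Ereg encodes epiregulin, a ligand of EGFR and ERBB4 made in epithelium and stroma. It lies 45.9 kb to the left of Areg on the same strand (chromosome 5, 91074617 to 91093649). Its level was 7.24 and 5.26 FPKM in the controls, against 4.97 and 2.49 FPKM in the labelled knockouts. The groups did not overlap, but control replicate 2 and labelled knockout 1 were within counting error of each other (95% intervals 4.95 to 5.59 and 4.66 to 5.30 FPKM). The log2 difference was -0.65 (SE 0.31, 95% interval -1.50 to 0.19, limma adjusted p = 0.257), and -0.46 without control replicate 1. Without labelled knockout 2, the lowest library, it was -0.27.

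Btc, which encodes betacellulin, a ligand of EGFR and ERBB4, is the third ligand gene on this stretch of chromosome 5 (91357261 to 91402994, minus strand), 209 kb beyond Areg. Its level was 3.71 and 1.55 FPKM in the controls, against 1.79 and 1.64 FPKM in the labelled knockouts. Control replicate 1 was above the other 3 libraries, and control replicate 2 was the lowest of all. Its log2 fold change of -0.35 (SE 0.32, limma adjusted p = 0.500) became 0.09 without control replicate 1, so its direction rested on that library. Btc had the fewest reads of the 5 ligands in control replicate 2, 218, for a counting error of 6.77%.

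Tgfa encodes transforming growth factor alpha, a high-affinity EGFR ligand made by differentiating gut epithelium (chromosome 6, 86195227 to 86275743, plus strand). Its level was 11.2 and 10.6 FPKM in the controls, against 7.67 and 7.33 FPKM in the labelled knockouts. The libraries of each group lay close together and the groups did not overlap. On the log2 scale the difference was -0.48 (SE 0.10, 95% interval -0.74 to -0.23, limma adjusted p = 0.0935), or -0.33 relative to the median of all genes. It was -0.45 without control replicate 1 and -0.52 without control replicate 2, so of the ligands whose groups did not overlap it moved least with the choice of control pool.

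Hbegf encodes heparin-binding EGF-like growth factor, a ligand induced by injury (chromosome 18, 36504927 to 36515805, minus strand). Its level was 9.36 and 11.5 FPKM in the controls, against 8.87 and 10.3 FPKM in the labelled knockouts. The groups overlapped. Its fold change on the log2 scale was -0.10 (SE 0.14, 95% interval -0.46 to 0.26, limma adjusted p = 0.656), and median-ratio scaling and quantile normalization turned it positive (0.0552 and 0.0482). Without control replicate 1 it was -0.23, and without control replicate 2 it was 0.0309. The 5 ligands summed to 40.8 and 34.7 FPKM in the controls and to 27.8 and 25.5 FPKM in the labelled knockouts.

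**Figure D2:**
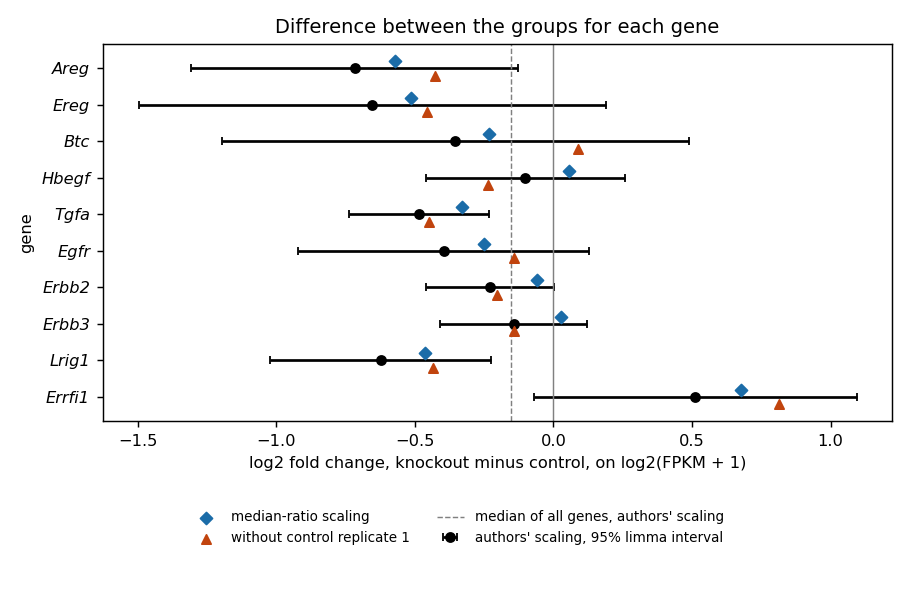
Log2 fold change of each gene, labelled knockout minus control, on the log2(FPKM + 1) scale. Black points with bars are limma values with 95% intervals, blue diamonds the values after median-ratio scaling, orange triangles the values without control replicate 1, and the dashed line the median of all genes (-0.15). The intervals of Areg, Tgfa and Lrig1 lie below 0, none of the 10 genes passed after adjustment, Btc turns positive without control replicate 1, and Hbegf and Erbb3 turn positive after median-ratio scaling.

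Among the receptors, Egfr, the receptor for all 5 ligands, lies on chromosome 11 (16752203 to 16913907, plus strand). Its level was 7.08 and 4.68 FPKM in the controls, against 3.80 and 4.53 FPKM in the labelled knockouts. The groups did not overlap, but control replicate 2 and labelled knockout 2 were within counting error (95% intervals 4.45 to 4.93 and 4.29 to 4.77 FPKM), and control replicate 1 was above the rest. The log2 difference was -0.40 (SE 0.20, 95% interval -0.92 to 0.13, limma adjusted p = 0.271), and -0.14 without control replicate 1.

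Erbb2, the ligandless partner receptor, lies on the same chromosome (11, 98412484 to 98437716, plus strand). Its level was 36.7 and 35.4 FPKM in the controls, against 31.2 and 30.0 FPKM in the labelled knockouts. The groups did not overlap and each was tight. On the log2 scale the difference was -0.23 (SE 0.09, 95% interval -0.46 to 0.00, limma adjusted p = 0.191), which median-ratio scaling brought to -0.06. Without control replicate 1 it was -0.20. Erbb3, the main neuregulin receptor of the epithelium (chromosome 10, 128569368 to 128589501, minus strand), had 88.8 and 88.4 FPKM in the controls, against 76.1 and 84.2 FPKM in the labelled knockouts. Those groups did not overlap. Its log2 fold change of -0.14 (SE 0.10, limma adjusted p = 0.402) lay next to the median of all genes and became 0.0274 after median-ratio scaling. Without control replicate 1 it stayed at -0.14.

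The 2 inhibitors lay on opposite sides. Lrig1, which encodes a membrane protein that promotes receptor turnover (chromosome 6, 94604529 to 94700253, minus strand), had 17.3 and 13.1 FPKM in the controls, against 9.94 and 8.96 FPKM in the labelled knockouts. The groups did not overlap. Its fold change on the log2 scale was -0.62 (SE 0.16, 95% interval -1.02 to -0.22, limma adjusted p = 0.114). It was -0.43 without control replicate 1 and -0.81 without control replicate 2.

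Errfi1, the cytoplasmic inhibitor (chromosome 4, 150853801 to 150868889, plus strand), had 22.2 and 14.3 FPKM in the controls, against 25.0 and 26.8 FPKM in the labelled knockouts. Both labelled knockouts were above both controls, and control replicate 2 was the lowest. The log2 difference was 0.51 (SE 0.22, 95% interval -0.07 to 1.09, limma adjusted p = 0.219) and 0.68 after median-ratio scaling. It was 0.81 without control replicate 1 (adjusted p = 0.0657) and 0.21 without control replicate 2 (adjusted p = 0.229).

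Ratios of 2 genes within a library do not depend on how libraries are scaled. Those below were chosen after the values were seen and are a description. In both labelled knockouts Errfi1 stood above both controls, and Egfr and Lrig1 below them. The 2 ratios with Errfi1 were therefore bound to separate. Errfi1 stood at 3.13 and 3.05 times the FPKM of Egfr in the controls and at 6.57 and 5.91 times in the labelled knockouts. The 2 controls lay close together on this ratio, although each of the genes differed between them. Lrig1 stood at 0.781 and 0.918 times the FPKM of Errfi1 in the controls and at 0.398 and 0.335 times in the labelled knockouts. The ratio of Lrig1 to Egfr overlapped between the groups, at 2.45 and 2.80 in the controls, against 2.61 and 1.98 in the labelled knockouts. The ratio of Erbb3 to Erbb2 also overlapped, at 2.42 and 2.50 against 2.44 and 2.80, as did that of Erbb2 to Egfr, at 5.19 and 7.55 against 8.20 and 6.63.

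**Figure D3:**
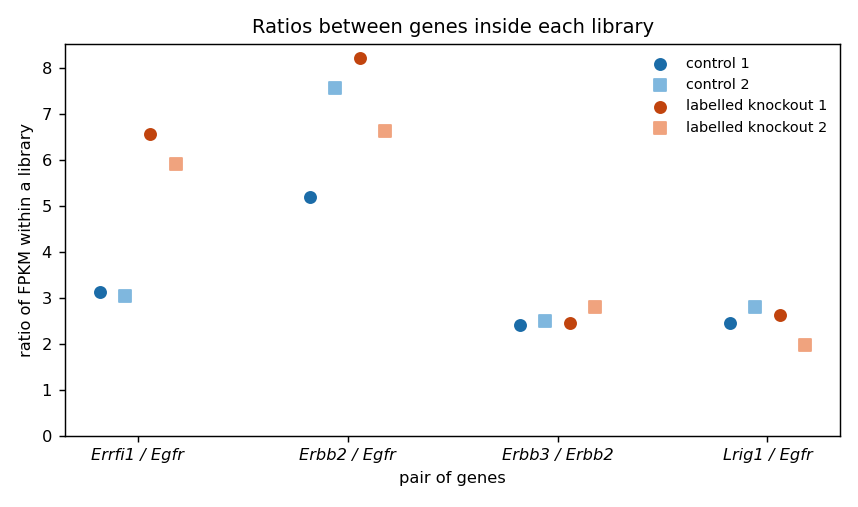
Ratio of the FPKM of 2 genes inside each library, 1 point per library, on a linear axis from 0. The Errfi1 to Egfr ratio was near 3 in both controls (3.13 and 3.05) and 6.57 and 5.91 in the labelled knockouts, while the Erbb2 to Egfr, Erbb3 to Erbb2 and Lrig1 to Egfr ratios overlapped between the groups.

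FPKM is scaled by gene length, so levels can be ordered between genes. In the controls Erbb3 had the highest mean (88.6 FPKM), followed by Erbb2 (36.1), Errfi1 (18.2), Lrig1 (15.2), Tgfa (10.9), Hbegf (10.4), Areg (7.56), Ereg (6.25), Egfr (5.88) and Btc (2.63). The ranges of the 2 control libraries overlapped between the neighbours Errfi1 and Lrig1, Tgfa and Hbegf, Areg and Ereg, and Ereg and Egfr, and were separate between the other neighbours. In the labelled knockouts Erbb3, Erbb2 and Errfi1 again led (80.2, 30.6 and 25.9 FPKM), and Errfi1 was there separate from the next gene, Hbegf (9.61 FPKM). Erbb3 was between 12.5 and 20.0 times the level of Egfr in the 4 libraries. All 10 genes passed the filter on low values (at least 1 FPKM in at least 2 libraries) through both groups, on 216 to 17334 recovered reads per library.

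The genes with the most alike pattern were taken, for the 3 genes of largest fold change, as those with the smallest distance between centred log2(FPKM + 1) profiles over the 4 libraries, among 7562 genes with a mean of at least 5 FPKM. For Areg they were Hs3st1 (distance 0.0291; 12.2, 7.79, 5.95 and 4.97 FPKM in the order control 1, control 2, labelled knockout 1 and 2), Hmgn1 and Serinc2. For Lrig1 they were Plp2 (distance 0.0285), Tmed9 and Creb3l1. For Ereg they were less close, Igkv10-94 (distance 0.154), an immunoglobulin segment, Sdc1 and Eif2s2. With 4 libraries many genes can share a pattern, and the likeness is a description.

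Of the other ErbB ligands and the receptor Erbb4, Nrg4 was in the table, at 1.15 and 0.729 FPKM in the controls, against 1.15 and 1.40 FPKM in the labelled knockouts. It overlaps Fbxo22 by 4212 bases of the opposite strand, which leaves its value uncertain. Egf, Epgn, Nrg1, Nrg2, Nrg3 and Erbb4 were not among the 13359 distinct genes, so their levels are not known here. All 13359 had a mean of about 1 FPKM or more in at least 1 group.

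The ligand-processing list, with the sheddases and their iRhom partners, had 12 genes tested. Of these 11 had negative fold changes (7 after median-ratio scaling), with a median of -0.19. Of all genes tested, 71.7% had (51.3% after median-ratio scaling). In the list 0 passed limma's threshold (0 by voom). At an unadjusted p under 0.05 there were 0, where 19.1% of all genes were lower and 7.49% higher. Adam10, which sheds betacellulin, stood at 56.9 and 38.5 FPKM in the controls, against 37.8 and 35.0 FPKM in the labelled knockouts, so control replicate 1 was above the rest. Its log2 fold change of -0.36 became -0.08 without that library. Rhbdl2, a rhomboid protease, had a log2 fold change of -0.34 (-0.20 without control replicate 2), Ap1m2, a sorting adaptor of epithelial cells, one of -0.20, and Cnih4, a cargo receptor of the early secretory pathway, one of 0.19.

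Among 19 genes of receptor trafficking and turnover, 16 had negative values (10 after median-ratio scaling), where 71.7% (51.3%) of all genes had. Their median was -0.20. By limma 0 passed (0 by voom), with 5 lower and 2 higher at an unadjusted p under 0.05, where 19.1% and 7.49% of all genes were. Ptprj, a receptor phosphatase that acts on EGFR, stood at 14.2 and 13.0 FPKM in the controls, against 10.2 and 7.15 FPKM in the labelled knockouts, and Cd2ap, a CBL partner in endocytosis, at 50.4 and 49.1 against 40.5 and 33.9 FPKM. Socs4, which targets EGFR for degradation, stood higher with Errfi1, at 15.7 and 14.2 FPKM in the controls, against 19.0 and 18.6 FPKM in the labelled knockouts. The pseudokinase gene Trib3 stood at 4.78 and 5.54 against 7.03 and 8.62 FPKM. For these 4 genes, named for their small p-values, the groups did not overlap, as for 48.5% of all genes lower and 14.9% higher. Their limma adjusted p-values ran from 0.125 for Trib3 to 0.142 for Socs4.

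Adaptors and the RAS-ERK core lay near the background. Negative fold changes were found for 16 of 22 genes (10 after median-ratio scaling), where 71.7% (51.3%) of all genes had them. Their median was -0.13, and 0 passed limma or voom. At an unadjusted p under 0.05, 4 were lower and 0 higher, where 19.1% and 7.49% of all genes were. Rps6ka3, a kinase downstream of ERK, had a log2 fold change of -0.54, Nras one of -0.31 and Hras one of -0.29. Among 13 genes of the PI3K-AKT branch, 9 had negative values (4 after median-ratio scaling), where 71.7% (51.3%) of all genes had. Their median was -0.10, and 0 passed limma or voom (1 lower at an unadjusted p under 0.05, where 19.1% of all genes were). That 1 was Akt1, at 47.3 and 37.7 FPKM in the controls, against 29.0 and 28.8 FPKM in the labelled knockouts (log2 fold change -0.53, limma adjusted p = 0.116). Its log2 fold change was -0.37 without control replicate 1 and -0.69 without control replicate 2. Akt2, Rictor and Tsc1 had log2 fold changes of -0.28, -0.26 and -0.24, and that of Akt2 was -0.12 without control replicate 1.

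Of 23 ERK response and feedback genes tested, 18 were negative (16 after median-ratio scaling), with a median of -0.27 (-0.13 after median-ratio scaling), and 1 fell by limma, the cyclin gene Ccnd1 (0.131% of all genes fell). Of all genes 71.7% were negative (51.3% after median-ratio scaling). At an unadjusted p under 0.05, 2 of the 23 were lower and 1 higher, where 19.1% and 7.49% of all genes were. Etv5, Phlda1 and Plaur stood at 11.0, 35.6 and 9.78 FPKM in control replicate 1, against 1.35, 8.17 and 3.05 FPKM in control replicate 2. In the labelled knockouts they stood at 1.06 and 0.657, 7.89 and 6.38, and 2.70 and 1.92 FPKM. Etv4 and Spry4, also listed, did not pass the filter on low values and were not tested. Ccnd1 stood at 32.3 and 34.2 FPKM in the controls, against 17.2 and 15.2 FPKM in the labelled knockouts (log2 fold change -0.99, SE 0.10, limma adjusted p = 0.0438). Of 12 alternatives 3 kept its call, with adjusted p-values from 0.0354 to 0.348 over all of them. The call was lost without control replicate 1, labelled knockout 1 or labelled knockout 2. With all 4 libraries it was also lost after median-ratio scaling (limma adjusted p = 0.0647) and quantile normalization (0.0506). Changing the filter, dropping trend and robust moderation, or adding a replicate block lost it too. The value of Ccnd1 is uncertain because a gene of the opposite strand overlaps it. Ier3, an immediate early gene, had 13.8 and 7.32 FPKM in the controls, against 4.41 and 5.30 FPKM in the labelled knockouts (log2 fold change -0.93, limma adjusted p = 0.172). It was -0.51 without control replicate 1 and -1.34 without control replicate 2. Fos went the other way, at 67.6 and 69.6 FPKM in the controls, against 85.0 and 103 FPKM in the labelled knockouts (log2 fold change 0.44, limma adjusted p = 0.132). Dusp6, the ERK phosphatase induced by ERK itself, stood at 34.1 and 41.3 against 27.4 and 32.0 FPKM, with a log2 fold change of -0.33 (limma adjusted p = 0.206), and -0.20 without control replicate 2.

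**Figure D4:**
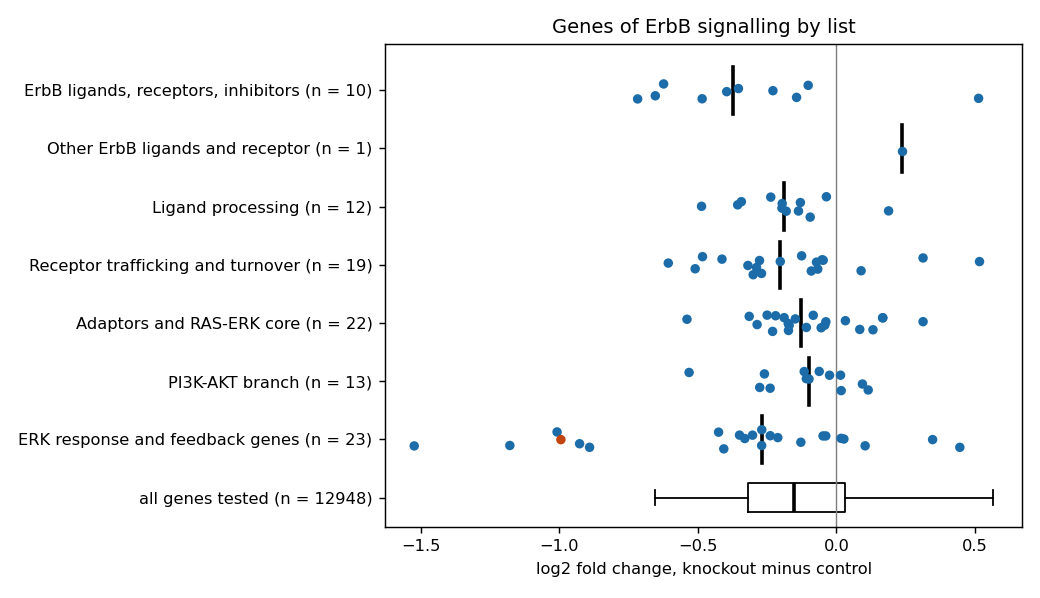
Log2 fold change of the 10 genes and of 6 lists of other ErbB signalling genes, 1 point per gene, with black bars at list medians. The box shows all 12948 genes tested (quartiles, with whiskers at the 5th and 95th percentiles). Ccnd1 is the 1 gene in orange, past the adjusted threshold, and the list medians with more than 1 gene run from -0.27 to -0.10, with the 10 genes at -0.37.

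Levels of cell type and regional markers are given beside these genes. The summed level of 15 enterocyte markers was 14331 and 16275 FPKM in the controls, against 23157 and 26933 FPKM in the labelled knockouts, with all 15 log2 fold changes positive and 3 past limma's threshold. The 8 crypt base stem cell markers summed to 258 and 252 FPKM against 167 and 168 FPKM, all 8 with negative fold changes and 0 past the threshold (4 at an unadjusted p under 0.05). The 8 cycling cell markers summed to 217 and 204 FPKM against 149 and 149 FPKM, also all negative with 0 past it (8 at an unadjusted p under 0.05). The 8 Paneth cell markers, of a cell type known as a source of EGF for the stem cell niche, summed to 7561 and 9774 FPKM against 4548 and 6476 FPKM, with 2 past the threshold. Goblet markers (7) summed to 6624 and 8251 against 6521 and 5698 FPKM, and general epithelial markers (7) to 6614 and 7611 against 6519 and 6382 FPKM. Over all genes tested, 71.7% had negative fold changes, and 19.1% were lower at an unadjusted p under 0.05. Limma's threshold was passed by 0.595% of them higher and 0.131% lower. Fewer crypt base cells in a pool and less of these RNAs per cell cannot be told apart in bulk RNA. The 7 proximal markers summed to 540 and 339 FPKM against 2076 and 3800 FPKM, with 1 of the 6 tested past the threshold. Fabp1 (609 and 1107 FPKM) and Apoa4 (1097 and 2162 FPKM) made up most of the sums in the labelled knockouts. Both are also on the enterocyte list. Onecut2, not tested, stood at 4.18 and 0.246 FPKM in the controls, against 0.201 and 0.227 FPKM in the labelled knockouts. The 6 distal markers summed to 1641 and 7962 FPKM in the controls, against 2453 and 218 FPKM in the labelled knockouts. The 11 fibroblast and muscle markers summed to 387 and 494 FPKM against 386 and 348 FPKM. Ranges overlapped between the groups for 5 endothelial markers (20.7 to 28.2 against 21.4 to 26.8 FPKM) and for the 9 leukocyte markers in the table (66.6 to 71.2 against 55.3 to 71.7 FPKM). No listed marker in the table was at 0, but every gene there had a mean of about 1 FPKM or more in at least 1 group. The leukocyte marker S100a8 was not among them. The part of these differences in the levels of the 10 genes was not tested.

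**Figure D5:**
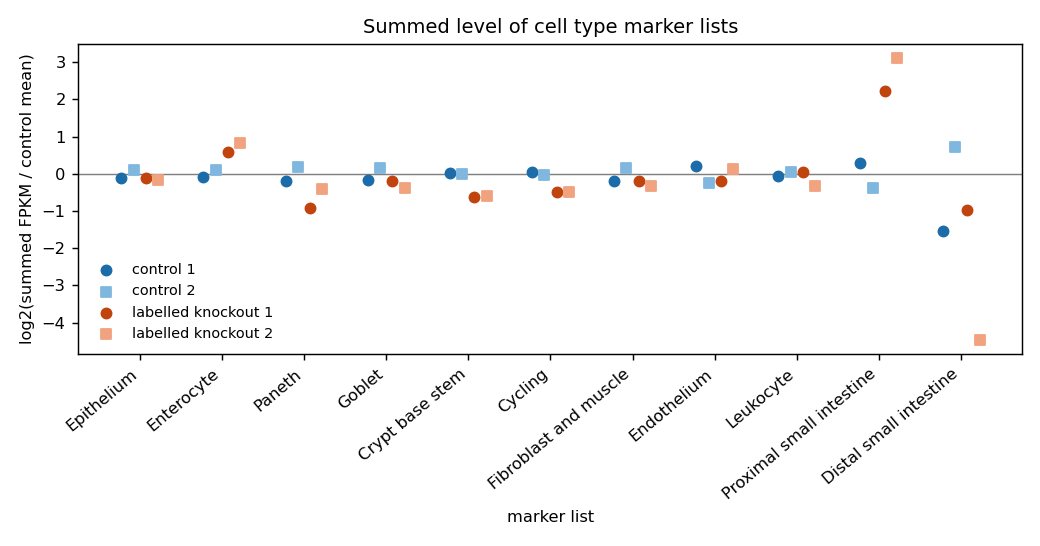
Summed FPKM of each marker list in each library, as log2 of its ratio to the control mean, 1 point per library. Enterocyte and proximal lists sat above both controls in both labelled knockouts. Stem cell, cycling and Paneth lists sat below both controls. So did goblet, epithelial, and fibroblast and muscle lists, though in labelled knockout 1 these were close to the lower control. The distal list ranged widely within both groups.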

How the data were processed

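RNA-seq of 4 crypt libraries was used, 2 per group, grouped by their titles. A further 4 ChIP-seq libraries of the HCT116 line were not analysed here. The authors deposited 1 table. Per the file headers it holds a value per library, group means, and per gene a p-value, a q-value and a log2 fold change. No unit is named. The deposited values were read as FPKM, because with 1 total per library (from genes of at most 200 bases) and a fitted length per gene they gave whole reads within 0.002 for 13359 of 13359 genes, against 70 with totals made wrong by 1% to 2%. The length is not annotated: it is the smallest that makes all 4 libraries whole. Among 222 genes of at most 200 bases it equalled the genomic span in 208 and was shorter in 12, so recovered reads can be too low by a whole factor. The fits to log2(FPKM + 1) do not use these reads, while voom and the counting intervals do. The authors' means are in FPKM too. HISAT2, BWA, SICER, mm10 and hg38 stand in the submitters' processing notes without roles. The counting tool, annotation, strand use and the authors' test are not stated in what was used here. In all 13527 entries were read, and the 168 exact repeats among them were dropped. Unused per-sample columns numbered 0.

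Values of log2(FPKM + 1) were fitted by limma (3.58.1, R 4.3.3), with trend and robust moderation, genotype as the only term, and genes of at least 1 FPKM in at least 2 libraries (12948). Residual degrees of freedom were 2. A count test had been set down for raw counts and limma for normalized values, and FPKM called for limma. Scripts were tested on simulated data.

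The 10 genes and the lists were chosen with earlier results of these data known, and the motifs and ratios after the values were seen. Named were the 10 genes, Zmynd8, list genes past the threshold, up to 4 of smallest p per list, and the 3 genes most alike to each of 3. Lgr5, Epcam, Fabp1, Apoa4, Onecut2 and S100a8 were added as markers. Clu, Muc6, Etv5, Phlda1 and Plaur were added for their level in control replicate 1, and Etv4 and Spry4 as list genes not tested. A gene that this rule names is not reported here. Where strand is not stated, overlapping genes can share reads. Lrig1 overlaps Slc25a26 by 131 bases, Erbb2 overlaps Mien1 by 9, and Ereg overlaps a listed lncRNA by 147, each on the opposite strand. In the RefSeq table, which gives no strand, noncoding or predicted genes overlap Hbegf, Egfr, Erbb3, Lrig1, Errfi1, Adam10, Ptprj, Akt1 and Dusp6. Alternatives covered the pseudocount (0.1), the filter, scaling, the variance model, voom, a replicate block and leaving out each library.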

Additional observations from a re-analysis of the deposited data

How the results depend on the processing

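All 10 genes stayed outside the threshold under every alternative that kept the 4 libraries, except that Ereg and Btc were not tested at the filter of a mean of 5 FPKM. Leaving out 1 library gave 0 to 2 of the 10 called (Areg and Lrig1, without control replicate 2), 0 to 230 genes called higher and 0 to 386 called lower. The counts of 0 came without labelled knockout 1 (581 higher and 1080 lower at an unadjusted p under 0.05) and without labelled knockout 2 (430 and 665). The lone library left in a group is then assumed to vary like the other group. The largest counts called higher and lower came without control replicate 2, as did the calls of Areg and Lrig1. Of 118 values of the 10 genes under alternatives 5 reversed: Btc without control replicate 1 (0.0877, in a leave-one-out range from -0.795), Hbegf with median-ratio scaling (0.0552), quantile normalization (0.0482) and without control replicate 2 (0.0309, in a leave-one-out range from -0.2349), and Erbb3 with median-ratio scaling (0.0274). Over all genes, calls higher and lower were 1 and 0 without a filter (981 and 2431 at an unadjusted p under 0.05), 2 and 0 at a mean of 5 FPKM (692 and 1651), 11 and 0 without trend or robust moderation (948 and 2424), and 123 and 27 with voom on recovered reads. Median-ratio scaling left 4 called lower and quantile normalization 5. With a replicate block limma called 0 higher and 0 lower (907 and 2245 at an unadjusted p under 0.05). The labels share only replicate numbers, and deviations of same-numbered libraries correlated at 0.0452 across genes, so no pairing was assumed. The causes were not tested. Areg and Btc had the fewest reads of the 10 genes in each library, 216 to 503, for counting errors of 4.46% to 6.80%. Their control pools differed by more, at 9.26 and 5.87 FPKM for Areg and 3.71 and 1.55 FPKM for Btc.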
